A study of Mus musculus with 42 samples.

Results

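The comparison set recombinant TSG-6 directly against bacterial lipopolysaccharide (LPS) in synovial fibroblast cultures labelled as TSG-6 knockout. Its members were chosen by title, namely the 3 arrays of TSG-6-treated and the 4 arrays of LPS-treated knockout-labelled cultures, which make 7 of the 42 arrays of the series. Synovial fibroblasts build and maintain the matrix of the joint lining. The TSG-6 cultures received 120 ug/ml recombinant mouse TSG-6 for 12 h and the LPS cultures 200 ng/ml LPS for 12 h. Values are also given for 2 TSG-6 and 2 LPS arrays of wild-type cultures and for knockout-labelled cultures given TSG-6 with 24 ug/ml hyaluronan, 24 ug/ml hyaluronan or 5 ng/ml TNFa for 12 h (4 arrays each). The untreated cultures have 8 knockout-labelled and 5 wild-type arrays. All these cultures came from female BALB/c mice, either wild-type or lacking Tnfaip6, which encodes TSG-6. The mice had been made arthritic by immunisation with cartilage proteoglycan and the adjuvant DDA. The cells had been through up to 6 passages and were kept overnight at 0.5% serum before treatment. The labels number the arrays as biological replicates but name no animal for any of them, so p-values measure only the spread between these cultures. Each agent was used at 1 dose and 1 time, so a difference between TSG-6 and LPS is a difference between those doses.

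TSG-6 is a secreted protein made during inflammation, which binds hyaluronan and passes the heavy chains of inter-alpha-inhibitor onto it. LPS, a lipid of the bacterial outer membrane, is sensed by CD14 and the Tlr4 receptor complex, which activates NF-kB and, along a separate arm, the factors that switch on type I interferon. Interferon in turn raises a large family of antiviral genes and the immunoproteasome, the variant proteasome that cuts peptides for MHC class I. In fibroblasts, TGF-beta signalling through SMAD proteins is known to raise contractile proteins of the actin cytoskeleton and secreted matrix proteins.

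The values are log2 expression centred on each probe set's median over the 42 arrays, so they show differences between arrays and no absolute level, and the presence of fibroblast markers could not be checked as a level. Of 14 synovial fibroblast markers, 0 passed an adjusted p of 0.05 between TSG-6 and LPS in limma and 4 passed an unadjusted p of 0.05. Of all 18195 genes, 1512 had an unadjusted p under 0.05 in that fit. With the culture set (a or b) as a block 3 markers were higher with TSG-6, against 0.967% of all genes. With the 7 arrays fitted alone 1 was, against 0.033%. Markers of macrophages, neutrophils, lymphocytes, chondrocytes, adipocytes and pericytes also gave 0 calls in limma, with 0 to 2 of a list under an unadjusted p of 0.05. Endothelial markers gave 1 call of 13, Ramp2, which was lower with TSG-6, against 0.247% of all genes. The median over the endothelial list ranged from -0.95 to -0.09 on TSG-6 arrays and from -0.48 to -0.06 on LPS arrays. The 18S ribosomal RNA probe set exceeded 1 on TSG-6 replicate 2 (3.73) and on LPS replicates 2 (2.46) and 4 (3.81). Some probe sets also split the 27 knockout-labelled arrays into sets a and b, here called culture sets. Of 25 probe sets with a wide gap between arrays, 12 share this split. The labels do not name the sets, and what they stand for is unknown. Set a held TSG-6 replicates 1 and 2 and LPS replicates 1 and 2, and set b held TSG-6 replicate 3 and LPS replicates 3 and 4. Beyond the alternative fits given here, the part of the endothelial markers, the 18S signal and the culture sets in the results was not tested. The Tnfaip6 probe set read 0.41, -0.01 and 0.40 on the TSG-6 arrays, against 0.46, 0.49, -0.09 and 0.17 on the LPS arrays. These overlap, and since the labels do not say which stretch of Tnfaip6 was deleted, the probe set does not check the knockout label.

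With TSG-6, knockout-labelled fibroblasts had more Col8a2, Tgfbi and Myl9 mRNA than with LPS. They had less of the interferon-stimulated genes Ifit3 and Oasl2, of the immunoproteasome gene Psmb8 and of the chemokine Ccl5. Col8a2, Tgfbi, Psmb8 and Ccl5 kept their calls with each of the 7 arrays left out. Myl9 kept its call in 2 of these 7 fits, Ifit3 in 3 and Oasl2 in 3. Of 18195 genes, 61 were higher and 45 lower with TSG-6 at an adjusted p under 0.05 (limma with Benjamini-Hochberg adjustment), in all 106 genes or 0.583% of those tested. Of these, 33 differed by at least 2-fold. In 103 of the 106 the TSG-6 arrays all lay on one side of the LPS arrays. Among all genes this was so for 4.11% upward and 4.46% downward. The 106 were called from these same arrays, so their separation follows largely from the choice and is no separate evidence of a difference. In bulk RNA, fewer cells of a type and less RNA per cell cannot be told apart. The count of genes was 27 without TSG-6 replicate 1, 51 without TSG-6 replicate 2, 57 without LPS replicate 3 and 53 without LPS replicate 4. It was 24 without the arrays of high 18S signal, and 21 of those were among the 106. Within culture set a 23 genes passed, 20 of them among the 106, and within set b 13, of which 10 were among the 106. Set b has a single TSG-6 array, which that fit assumes to vary like the arrays of other groups. Fitted on the 7 arrays alone, with few degrees of freedom, 13 genes passed.

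The gene that rose most was Col8a2, which encodes a chain of the short collagen VIII. It read 2.14, 1.82 and 2.86 on the TSG-6 arrays, against -0.18, -0.31, -0.11 and -0.29 on the LPS arrays. The groups lay far apart, and the untreated arrays lay between them with values from 0.03 to 0.90. The difference was 2.49 ± 0.21 (SE) on the log2 scale, or 5.64-fold, with an adjusted p of 2.78e-09. Col8a2 kept its call with any of the 7 arrays left out and without the arrays of high 18S signal, where it was 2.65. Against untreated cultures, with 8 arrays that both comparisons share, it was higher by 1.86 ± 0.19 with TSG-6 (adjusted p 3.28e-08) and fell by 0.64 ± 0.17 on the log2 scale with LPS (adjusted p 0.0402).

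Tgfbi, which encodes a secreted matrix protein named for its induction by TGF-beta, read 2.05, 2.02 and 2.42 with TSG-6, against -0.95, 0.34, -0.88 and 0.54 with LPS. The TSG-6 arrays were all above the LPS arrays, which were themselves split, with replicates 2 and 4, those of high 18S signal, the higher ones. The difference was 2.40 ± 0.38, or 5.28-fold, at an adjusted p of 0.000556, and it was 3.15 without the arrays of high 18S signal. All 4 Tgfbi probe sets were higher with TSG-6, by 2.10 to 2.40.

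Pmepa1, which encodes a membrane protein that holds back SMAD signalling, read 0.92, 0.46 and 0.38 with TSG-6, against -0.99, -0.82, -1.24 and -0.98 with LPS. Its arrays did not overlap and the difference was 1.60 ± 0.21 (adjusted p 3.79e-05). Myl9, a regulatory light chain of smooth muscle myosin, read 0.85, 0.65 and 0.53 with TSG-6, against -0.28, -0.71, -1.18 and -1.34 with LPS. Here the LPS arrays spread over more than 1 log2 unit and the difference of 1.56 ± 0.36 had an adjusted p of 0.0262. Nox4, an NADPH oxidase that makes hydrogen peroxide, was the last of the 12 largest rises at 1.21 ± 0.30. Its adjusted p was 0.0498, and its LPS arrays reached from -1.84 to -0.02, below TSG-6 arrays at 0.30 to 0.95.

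Ncam1, the neural cell adhesion molecule, read 1.16, 1.59 and 1.21 with TSG-6, against -0.75, -0.35, -1.11 and -0.20 with LPS. The groups were well apart and differed by 1.92 ± 0.22 (adjusted p 2.7e-06), but the 7 probe sets of Ncam1 disagreed, with differences from -0.26 to 1.92. Olfm2, which encodes a secreted olfactomedin protein, read 1.98, 1.12 and 2.27 with TSG-6, against 0.15, -0.03, -0.04 and 0.19 with LPS. Its difference was 1.73 ± 0.20, or 3.31-fold (adjusted p 3.02e-06). Sorcs2, a receptor of the sortilin family, read 1.00, 0.84 and 1.03 with TSG-6, against -0.52, -0.50, -0.64 and -0.37 with LPS. Both groups were tight, the difference was 1.47 ± 0.18 (adjusted p 1.35e-05), and against untreated cultures Sorcs2 was higher by 0.76 ± 0.16 with TSG-6 and fell by 0.70 ± 0.15 on the log2 scale with LPS. The other large rises were Sertad4 (1.35), Gprin3 (1.34), Bpifc (1.32), of a family of lipid-binding proteins, and F13a1 (1.22), the A subunit of clotting factor XIII. In all 4 the TSG-6 arrays lay above the LPS arrays, which the choice of the rises required. The other Gprin3 probe set differed by 0.39.

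The gene that fell most was Ccl5, a chemokine that draws T cells and monocytes and a known target of both NF-kB and interferon response factors. It read -0.69, -0.76 and 1.37 with TSG-6, against 2.63, 2.74, 3.69 and 4.05 with LPS. No TSG-6 array reached the LPS arrays, although TSG-6 replicate 3 stood about 2 log2 units above the other TSG-6 arrays. The difference was -3.31 ± 0.57, so that Ccl5 was 9.9-fold lower with TSG-6 than with LPS (adjusted p 0.00196). Without the arrays of high 18S signal it was -2.82 with an adjusted p of 0.0968, and without TSG-6 replicate 3 it was -4.01. Untreated arrays ran from -1.84 to 0.01. Relative to them Ccl5 was 1.00 ± 0.51 higher with TSG-6, which did not pass (adjusted p 0.342), and 4.31 ± 0.46 higher with LPS (adjusted p 1.94e-07).

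**Figure D1:**
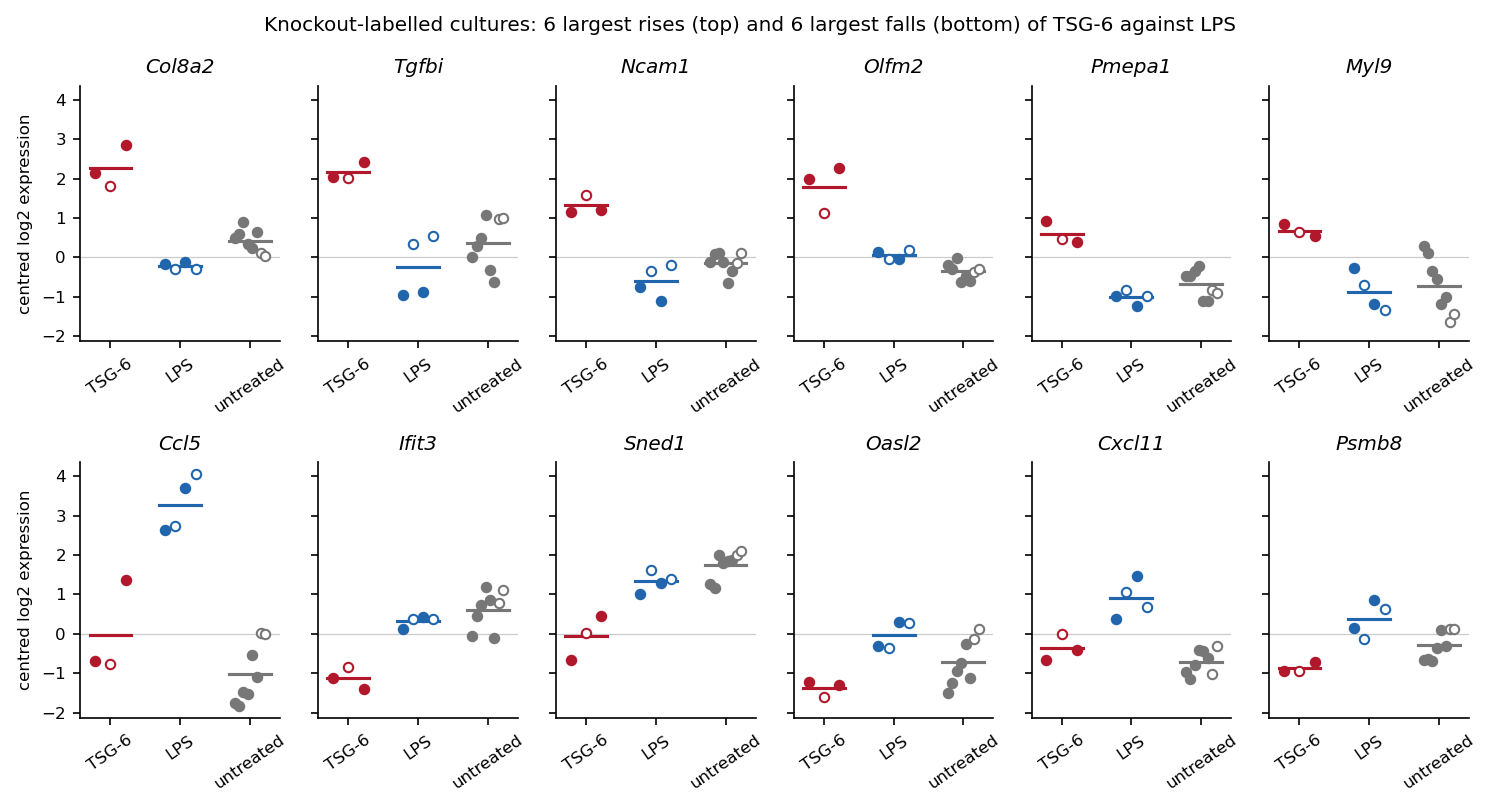
Centred log2 expression (vertical axis, same scale in every panel) of the 6 largest rises (top) and 6 largest falls (bottom) in knockout-labelled cultures. Each point is 1 array, with TSG-6 (3 arrays, red), LPS (4, blue) and untreated (8, grey), bars are group means, and open points are arrays whose 18S probe set exceeded 1. The 12 genes were picked from those in which no TSG-6 point overlaps the LPS points.

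Ifit3, an antiviral protein induced by interferon, read -1.13, -0.84 and -1.40 with TSG-6, against 0.12, 0.38, 0.44 and 0.39 with LPS. The LPS arrays were close together and all above 0, the TSG-6 arrays all below. The difference was -1.46 ± 0.32, or 2.74-fold lower with TSG-6 (adjusted p 0.0179). Against untreated cultures Ifit3 was lower with TSG-6, by -1.74 ± 0.28 (adjusted p 0.00011), and read -0.29 ± 0.25 with LPS (adjusted p 0.828). Oasl2, of the oligoadenylate synthetase family, read -1.22, -1.62 and -1.30 with TSG-6, against -0.31, -0.37, 0.30 and 0.28 with LPS, a difference of -1.35 ± 0.29 (adjusted p 0.0165). Its differences from untreated were -0.66 ± 0.26 with TSG-6 and 0.70 ± 0.23 with LPS, and neither passed (adjusted p 0.161 and 0.148).

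Psmb8 and Psmb9 encode catalytic subunits of the immunoproteasome. Psmb8 read -0.94, -0.95 and -0.73 with TSG-6, against 0.14, -0.13, 0.85 and 0.64 with LPS. The groups did not overlap, and the difference was -1.25 ± 0.21 (adjusted p 0.00186). The other Psmb8 probe set differed by -0.67. Psmb9 read -0.86, -0.46 and -0.25 with TSG-6, against 0.45, 0.14, 1.20 and 0.82 with LPS, and the difference was -1.18 ± 0.21 (adjusted p 0.00286). In both genes LPS replicates 3 and 4, of culture set b, were the highest. The interferon-inducible GTPase gene Ifi47 differed by -1.20 ± 0.24 (adjusted p 0.0106) and the transmembrane protein gene Ifitm1 by -1.12 ± 0.24 (adjusted p 0.0168).

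Cxcl11, a chemokine that binds Cxcr3 on activated T cells, read -0.68, -0.01 and -0.42 with TSG-6, against 0.38, 1.05, 1.48 and 0.67 with LPS. The difference of -1.27 ± 0.30 had an adjusted p of 0.0359, but the gene's other probe set differed by 0.08. Phf11d (-1.15 ± 0.27, adjusted p 0.0359) was also among the largest falls, but its call was lost with any of the 7 arrays left out. Sned1, a secreted matrix protein, differed by -1.39 ± 0.29 (adjusted p 0.0161). It read -0.66, 0.02 and 0.46 with TSG-6, against 1.01, 1.63, 1.28 and 1.40 with LPS, and untreated arrays reached from 1.15 to 2.10. Its untreated arrays overlapped the LPS arrays and not the TSG-6 arrays. Ndrg1, a gene known to rise in hypoxia and stress, differed by -1.10 ± 0.25 (adjusted p 0.0245) and Selenbp1, a selenium-binding protein, by -1.05 ± 0.21 (adjusted p 0.0107). All 5 probe sets of Ndrg1 were lower with TSG-6.

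Of these 24 genes, Col8a2, Tgfbi, Ncam1, Olfm2, Pmepa1, Sorcs2, Ccl5 and Psmb8 kept their calls with each of the 7 arrays left out in turn. Without TSG-6 replicate 1, 16 of the 24 calls were lost. The numbers lost were 8 without TSG-6 replicate 2 and 7 without TSG-6 replicate 3, and 2, 4, 10 and 10 without LPS replicates 1 to 4. Without the arrays of high 18S signal 14 were lost, and in all of these fits the 24 genes kept their direction.

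Promoters were looked at because the interferon-type genes moved together. The interferon-stimulated response element, searched on both strands as GAAA, any 2 bases and GAAA again, is the site bound by the interferon-activated factor complex. RefSeq promoters (build GRCm38.p6, windows of 300 bases lying mostly before the gene start) were held for 22 of the 29 listed interferon-stimulated genes, and 13 of the 22 (59.1%) contained it, against 523 of 14369 tested genes (3.64%). The list was made of genes known to be interferon-stimulated. A high share therefore follows from how the list was made and says nothing about TSG-6 against LPS. Among the 12 largest falls the element was in 1 of 9 genes with a promoter, Ifit3, and among the 12 largest rises in 1 of 9, Tgfbi. These promoters and that of Gbp3, also lower with TSG-6, are printed 5′ to 3′ with the letters of the element in capitals. That of Ifit3 lies at chr19:34583279-34583578 (+ strand), with matches starting at -156 and -122 from the gene start, that of Gbp3 at chr3:142559794-142560093 (+ strand), with overlapping matches at -45 and -39 (another Gbp3 window, chr3:142560106-142560405, has none), and that of Tgfbi at chr13:56609336-56609635 (+ strand), with a match at -194.
Ifit3: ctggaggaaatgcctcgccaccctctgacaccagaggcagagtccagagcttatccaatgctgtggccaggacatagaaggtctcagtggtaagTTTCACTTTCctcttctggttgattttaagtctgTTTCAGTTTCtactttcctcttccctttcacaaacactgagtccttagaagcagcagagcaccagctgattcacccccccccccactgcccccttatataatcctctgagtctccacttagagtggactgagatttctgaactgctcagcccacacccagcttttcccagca
Gbp3: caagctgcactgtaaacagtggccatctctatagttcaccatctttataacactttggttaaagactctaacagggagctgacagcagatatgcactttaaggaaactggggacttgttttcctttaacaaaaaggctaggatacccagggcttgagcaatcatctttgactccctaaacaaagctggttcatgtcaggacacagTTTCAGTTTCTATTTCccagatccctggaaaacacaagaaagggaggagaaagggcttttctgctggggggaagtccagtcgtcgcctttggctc
Tgfbi: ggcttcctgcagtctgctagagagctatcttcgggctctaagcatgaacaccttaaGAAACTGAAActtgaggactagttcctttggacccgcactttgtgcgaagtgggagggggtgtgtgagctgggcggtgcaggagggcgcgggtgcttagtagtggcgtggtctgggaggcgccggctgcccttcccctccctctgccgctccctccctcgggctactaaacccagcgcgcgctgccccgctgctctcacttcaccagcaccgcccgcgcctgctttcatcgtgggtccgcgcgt
A match describes letters in the window and not a bound site.

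The short SMAD box CAGACA, which factors of the TGF-beta pathway bind, was searched in the same windows. It was in 5 of 9 rises (55.6%), namely Olfm2, Sertad4, Gprin3, Bpifc and Nox4, in 0 of 9 falls, and in 20.5% of all genes with a promoter. A gene counted if any of its windows held the box, and not all windows of Olfm2 and Sertad4 did. These rises and falls were picked from the same data. An NF-kB site (GGG, any 2 bases and TTTCC), searched alike, was in 0 of 9 rises, 0 of 9 falls and 1.89% of all genes with a promoter. In the list of contractile and TGF-beta-responsive genes the SMAD box was in 2 of 12 (16.7%), and in the listed interferon-stimulated genes in 8 of 22 (36.4%).

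The listed genes of the contractile and TGF-beta-responsive group were higher with TSG-6 in 19 of the 22 measured, and 5 rose at the threshold, against 0.335% of all genes, while 0 fell. The 5 were Tgfbi, Myl9, Skil, Tpm1 and Cnn2. The median of the list was 0.45 and that of all genes -0.01. On single arrays the list's median lay between 0.19 and 0.50 with TSG-6 and between -0.46 and -0.11 with LPS. Tpm1, an actin-binding tropomyosin, read 0.38, 0.22 and 0.19 with TSG-6, against -0.34, -0.78, -0.44 and -0.57 with LPS, and the difference was 0.80 ± 0.16 (adjusted p 0.00829). Skil, which encodes the SMAD co-repressor SnoN, read 0.55, 0.50 and -0.05 with TSG-6, against -0.44, -0.04, -0.87 and -1.32 with LPS. Its arrays touched at TSG-6 replicate 3, and the difference was 1.00 ± 0.23 (adjusted p 0.0245). The other probe sets of Tpm1 differed by 0.06 to 0.55 and that of Skil by 0.54. Acta2, the smooth muscle actin that marks contractile fibroblasts, did not pass against LPS, at 1.10 ± 0.35 and an adjusted p of 0.199, and was 1.13 ± 0.31 higher than untreated with TSG-6 (adjusted p 0.0243). The count of 5 became 1 without TSG-6 replicate 1, 2 without LPS replicate 3, 3 without TSG-6 replicate 2, TSG-6 replicate 3 or LPS replicate 4, and 1 without the arrays of high 18S signal, where the median was 0.56. It was 0 with the 7 arrays fitted alone and 9 with the culture set as a block, where 0.967% of all genes were higher.

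Relative to untreated cultures, 864 genes (4.75%) passed with TSG-6, 382 higher (2.10%) and 482 lower (2.65%). With LPS 326 genes (1.79%) passed, 177 higher (0.973%) and 149 lower (0.819%). These counts were 322 without TSG-6 replicate 1 and 465 without TSG-6 replicate 2, and 200 without LPS replicate 1 and 213 without LPS replicate 3. Of the 22 contractile and TGF-beta-responsive genes, 7 were higher and 1 lower with TSG-6 than untreated, with a median of 0.51, and 0 were higher and 1 lower with LPS, with a median of -0.18. In this list Myl9 was 1.40 ± 0.32 higher with TSG-6 (adjusted p 0.00494) and read -0.15 ± 0.29 with LPS (adjusted p 0.95). The gene lower with TSG-6 was Tgfb2, which encodes a TGF-beta ligand (-0.43, adjusted p 0.0263), and the one lower with LPS was Ccn1, a matricellular protein (-0.63, adjusted p 0.00533).

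**Figure D2:**
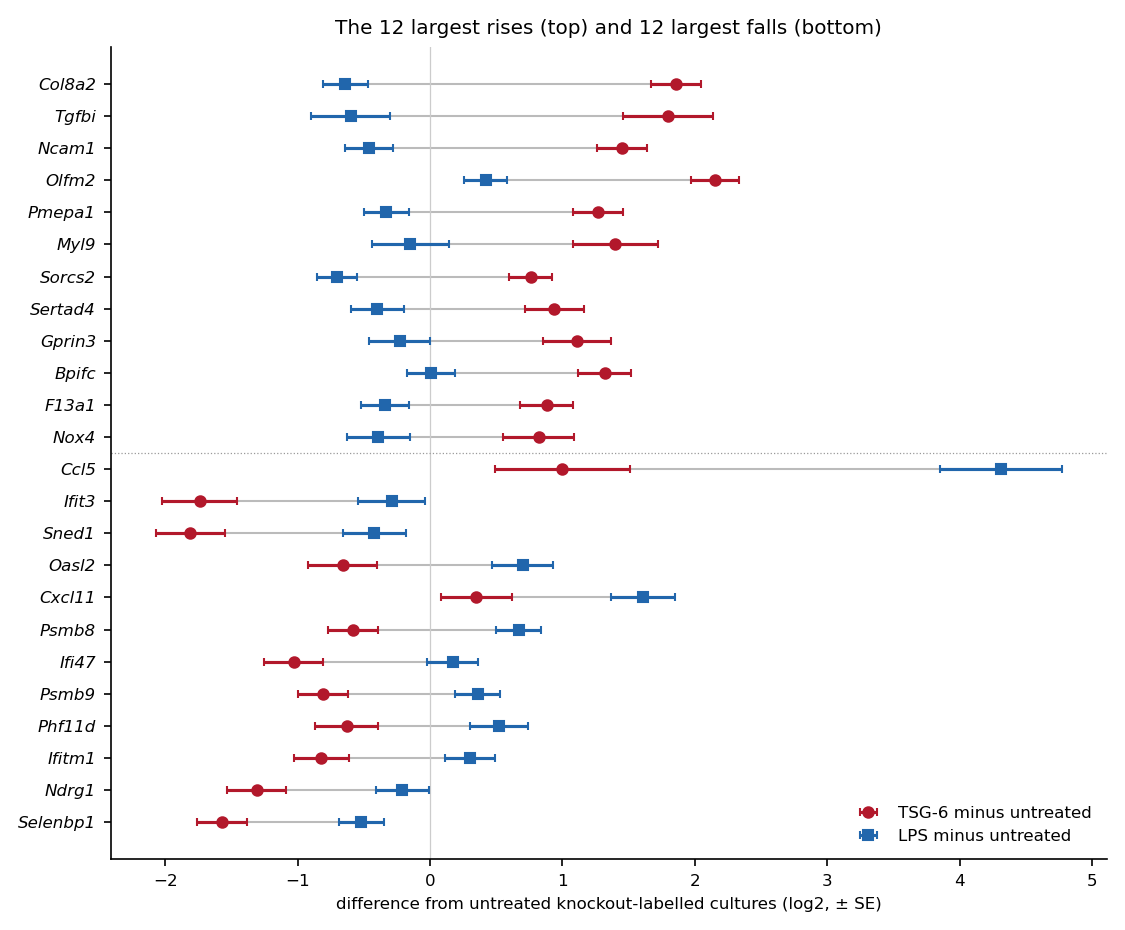
Difference from untreated knockout-labelled cultures (log2 ± SE, horizontal axis) for TSG-6 (red circles) and LPS (blue squares) in the 12 largest rises (above the dotted line) and 12 largest falls (below it). Both series share the 8 untreated arrays. For the rises the TSG-6 points lie right of 0 and the LPS points mostly at or left of it, while Ccl5 has its LPS point at 4.31.

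Of 21 collagen chains, 2 rose with TSG-6 against LPS, Col8a2 and Col5a2, against 0.335% of all genes, and 0 fell. The list's median was 0.13. Col5a2, a chain of the fibril-forming collagen V, read 0.96, 0.47 and 0.91 with TSG-6, against 0.05, 0.39, -0.07 and -0.18 with LPS. The difference was 0.73 ± 0.16 (adjusted p 0.0169), with the groups close at TSG-6 replicate 2 and LPS replicate 2. The other Col5a2 probe set differed by 0.41. The main chains of collagen I, Col1a1 at 0.55 (adjusted p 0.583) and Col1a2 at 0.52 (adjusted p 0.187), did not pass. Relative to untreated cultures 6 collagen chains were higher and 1 lower with TSG-6, against 2.10% and 2.65% of all genes. With LPS 3 were higher and 2 lower, against 0.973% and 0.819%. Col5a3 was higher by 1.24 with TSG-6 and by 1.11 with LPS, and the direct difference between the agents was 0.13 (adjusted p 0.902).

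Among 30 genes of hyaluronan synthesis, binding and breakdown, the pathway TSG-6 acts on, 1 rose, Vcan, against 0.335% of all genes. The list's median was 0.00. Vcan, the hyaluronan-binding proteoglycan versican, read 1.32, 0.78 and 1.12 with TSG-6, against 0.29, 0.57, -0.04 and -0.23 with LPS. No arrays of the groups overlapped, the difference was 0.93 ± 0.21 (adjusted p 0.0287), and its 8 probe sets ranged from -0.13 to 0.93. Has2, a hyaluronan synthase, was 1.01 ± 0.27 higher with TSG-6 and missed the threshold (adjusted p 0.0943), with arrays of 1.12, 0.13 and 0.15 with TSG-6 against -0.04, -0.23, -0.68 and -1.23 with LPS. Hapln1, a link protein of hyaluronan, stood 0.92 ± 0.37 higher (adjusted p 0.426) with overlapping arrays. Ptx3, a hyaluronan matrix protein known to bind TSG-6, differed by 0.01.

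Of 27 genes of endoplasmic reticulum chaperones and the secretory stress response, 2 rose, against 0.335% of all genes, and 0 fell. The list's median was 0.20. Fkbp11, a prolyl isomerase of secretory cells, read 0.98, 0.82 and 0.85 with TSG-6, against -0.14, -0.51, 0.10 and -0.05 with LPS. The groups were far apart, the difference was 1.03 ± 0.16 (adjusted p 0.000455), and its other probe sets gave -0.06 and 0.14. Sec61b, a subunit of the translocation channel, differed by 0.41 ± 0.10 (adjusted p 0.0498). The chaperone gene Hspa5, the best known stress marker of the list, differed by 0.28 and did not pass (adjusted p 0.627).

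All 20 measured genes of cholesterol synthesis and uptake were higher with TSG-6 than with LPS, with a median of 0.42, yet limma called 0. An unadjusted p under 0.05 was found for 6, against 1512 of all 18195 genes. With the culture set as a block 6 of the 20 passed, and under quantile normalization 4, against 1.74% and 2.18% of all genes. Relative to untreated cultures 11 of the 20 rose with TSG-6, against 2.10% of all genes, with a median of 0.76. With LPS 0 of the 20 rose in limma, with a median of 0.29. At an unadjusted p under 0.05 there were 4, against 1824 of all 18195 genes. Cyp51, the lanosterol demethylase, read 0.28, 0.01 and 0.13 with TSG-6, against -0.51, -0.46, -0.79 and -1.04 with LPS. Its arrays were apart, and the difference of 0.84 ± 0.32 had an adjusted p of 0.369. These genes are known to share a transcriptional regulator and are not independent of each other.

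The listed interferon-stimulated genes were lower with TSG-6 than with LPS in all 29 measured, by -1.46 to -0.20, and 4 fell at the threshold, against 0.247% of all genes. Of the 29, 26 had an unadjusted p under 0.05 in limma, against 1512 of all 18195 genes. The 4 were Ifit3, Oasl2, Gbp3 and Mx2, and the list's median was -0.70, against -0.01 for all genes. On single arrays the median lay between -0.84 and -0.71 with TSG-6, between -0.19 and 0.10 with LPS, and between -0.81 and 0.04 in untreated cultures, which thus overlapped both. Gbp3, a guanylate-binding GTPase, read -0.76, -0.80 and -0.40 with TSG-6, against 0.31, 0.53, 0.44 and 0.27 with LPS (difference -1.04 ± 0.25, adjusted p 0.0453). Mx2, an antiviral GTPase, differed by -0.75 ± 0.19 (adjusted p 0.0498). The calls of Gbp3 and Mx2 were lost with any of the 7 arrays left out. The count of 4 became 2 without LPS replicate 1 or 2, 1 without TSG-6 replicate 2 or 3, and 0 without LPS replicate 3, LPS replicate 4 or TSG-6 replicate 1. It was also 0 without the arrays of high 18S signal, where the median stayed at -0.70.

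Set against untreated cultures, the interferon-stimulated genes were lower with TSG-6 in all 29, with a median of -0.45. At the threshold 6 of them were lower, against 2.65% of all genes. With LPS, 22 of the 29 were above untreated, with a median of 0.16. At the threshold 2 were higher with LPS (Gbp2 at 0.65 and Gbp3 at 0.87), against 0.973% of all genes. Cmpk2, a mitochondrial nucleotide kinase, was -1.16 with TSG-6 (adjusted p 0.0049) and -0.11 with LPS. Gbp3 was -0.18 with TSG-6 (adjusted p 0.798) and 0.87 with LPS (adjusted p 0.0143). At the threshold Cmpk2 thus differed from untreated with TSG-6 and Gbp3 with LPS. Whether the genes of the list differ from each other in this way was not tested.

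Genes of MHC class I processing and the immunoproteasome were also lower with TSG-6 in all 13 measured, with a median of -0.45, and 4 fell, against 0.247% of all genes. Beside Psmb8 and Psmb9 these were Psmb10, the remaining catalytic subunit of the immunoproteasome, and Psme1, a subunit of its activator. Psmb10 read -0.44, -0.25 and -0.21 with TSG-6, against 0.27, 0.06, 0.87 and 0.57 with LPS (difference -0.74 ± 0.14, adjusted p 0.00356). Psme1 read -0.46, -0.09 and -0.16 with TSG-6, against 0.16, 0.24, 0.37 and 0.50 with LPS (difference -0.55 ± 0.12, adjusted p 0.0165). Neither gene's groups overlapped. The class I heavy chain gene H2-K1 differed by -0.47 and the peptide transporter gene Tap1 by -0.40, and neither passed. Relative to untreated cultures, 2 of the 13 were lower with TSG-6 (Psmb9 and Tap1), against 2.65% of all genes. With LPS 3 were higher (Psmb8, Psmb10 and Psme1), against 0.973%. The count of 4 was 1 without TSG-6 replicate 1, 2 without the arrays of high 18S signal and 0 with the 7 arrays fitted alone.

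**Figure D3:**
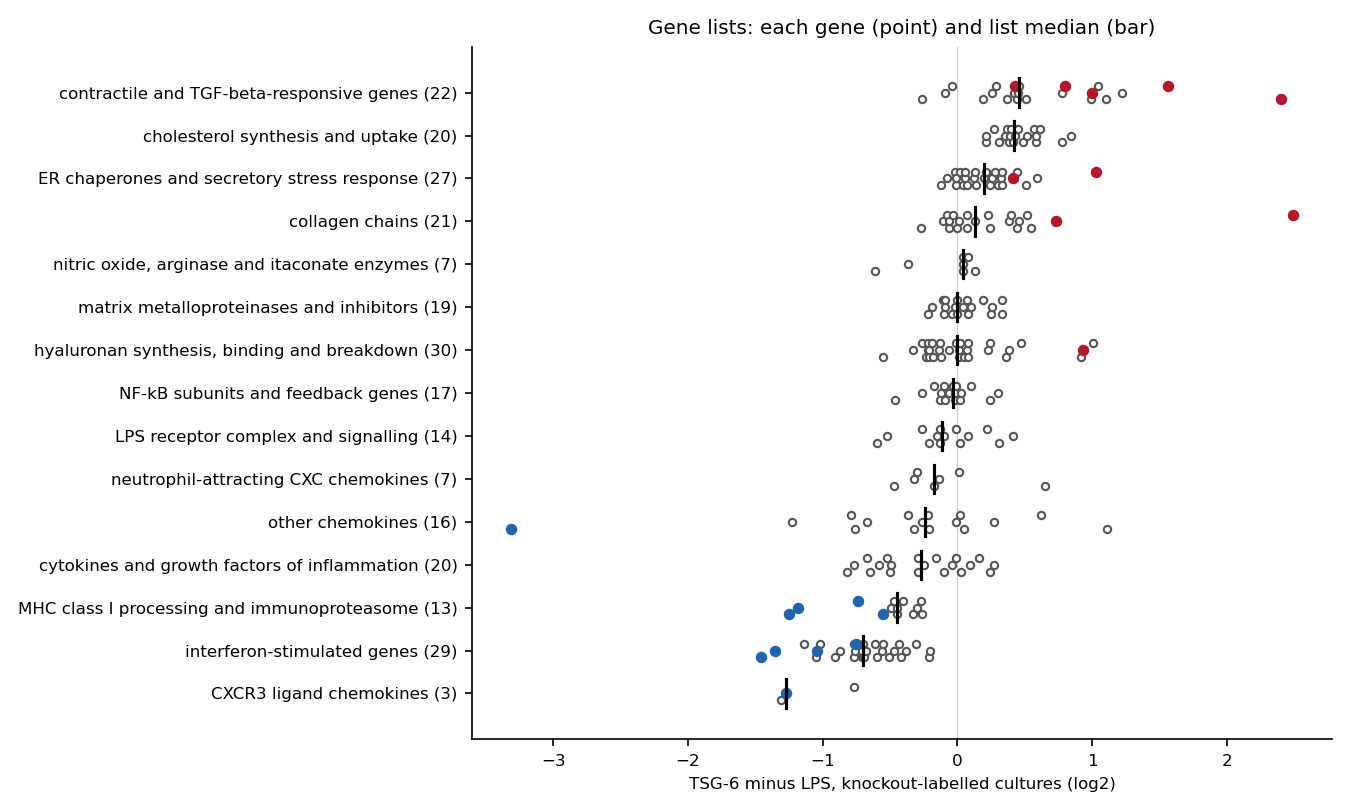
TSG-6 minus LPS in knockout-labelled cultures (log2, horizontal axis) for each gene of 15 lists, with the number measured in brackets. Filled points passed an adjusted p of 0.05 (red higher with TSG-6, blue lower), open points did not, and black bars are list medians. The interferon-stimulated genes and the MHC class I genes all lie left of 0, and the cholesterol genes all right of 0 with no filled point.

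Genes of the LPS response itself gave few calls in the direct comparison. In limma, 1512 of all 18195 genes had an unadjusted p under 0.05 there. Of 17 NF-kB subunits and feedback genes limma called 0, with a median of -0.03 and 3 at an unadjusted p under 0.05. Of 14 genes of the LPS receptor complex and its signalling it called 0 (1 unadjusted), with a median of -0.11. Cd14, the LPS co-receptor, read -0.78, -0.40 and -0.43 with TSG-6, against -0.12, -0.04, 0.04 and 0.06 with LPS, so the arrays were apart, and the difference of -0.52 ± 0.19 had an adjusted p of 0.338. Against untreated cultures Cd14 was 0.28 ± 0.17 higher with TSG-6 (adjusted p 0.462) and 0.81 ± 0.15 higher with LPS (adjusted p 0.0015).

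Of 20 inflammatory cytokines and growth factors, 0 passed in limma (6 unadjusted, against 1512 of all 18195 genes), with a median of -0.27. With the culture set as a block 2 passed and under quantile normalization 4, all lower with TSG-6, against 0.775% and 1.01% of all genes. Tnf came nearest, with 0.05, -0.47 and -0.14 on TSG-6 arrays against 0.10, 0.43, 0.33 and 0.72 on LPS arrays, a difference of -0.58 ± 0.15 (adjusted p 0.0686). Its highest TSG-6 array lay just below its lowest LPS array. Of 16 other chemokines, Ccl5 alone passed, where 0.247% of all genes fell, and the median was -0.24. The 7 neutrophil-attracting CXC chemokines gave 0 calls in limma (2 unadjusted), with a median of -0.17. The 3 ligands of Cxcr3 were all lower with TSG-6, Cxcl9 by -1.31 ± 0.43 (adjusted p 0.244), Cxcl11 as given and Cxcl10 by -0.77 ± 0.42 (adjusted p 0.678). The other Cxcl9 probe set differed by -0.28. Of 19 matrix metalloproteinases and inhibitors 0 passed (2 unadjusted) and the median was 0.00. Timp1, an inhibitor of these enzymes, was higher than untreated with either agent, by 0.77 ± 0.08 with TSG-6 and 0.59 ± 0.07 with LPS, and the direct difference was 0.19 ± 0.09 (adjusted p 0.561). The 7 nitric oxide, arginase and itaconate enzymes gave 0 calls in limma (0 unadjusted) and a median of 0.04.

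Several genes of the inflammatory lists passed against the shared untreated arrays with either agent, by similar amounts. Nos2, the inducible nitric oxide synthase, was 2.46 ± 0.25 higher with TSG-6 and 2.42 ± 0.22 higher with LPS, and the direct difference was 0.04 ± 0.28 (adjusted p 0.987). Mmp9, a gelatinase, was 1.85 ± 0.21 higher with TSG-6 and 1.77 ± 0.19 higher with LPS, with a direct difference of 0.08 ± 0.24. Il6, the cytokine interleukin, was 1.58 ± 0.41 higher with TSG-6 (adjusted p 0.0165) and 2.09 ± 0.37 higher with LPS (adjusted p 0.000643), with a direct difference of -0.52 ± 0.46 (adjusted p 0.855). The monocyte chemokine gene Ccl2 was 0.41 ± 0.07 higher with TSG-6 and 0.39 ± 0.07 higher with LPS. These genes were picked from the lists because they passed in both comparisons, and a direct difference that misses the threshold does not show that the agents acted alike. Others passed with LPS and not with TSG-6, among them Csf2, a growth factor of myeloid cells, which was 0.43 ± 0.21 higher with TSG-6 (adjusted p 0.311) and 1.09 ± 0.19 higher with LPS (adjusted p 0.000508), with a direct difference of -0.67 ± 0.23 (adjusted p 0.302).

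The same agents were set against each other in wild-type cultures, whose arrays are not shared with the knockout-labelled comparison. There 2 genes were higher (0.0110%) and 12 lower (0.0660%) with TSG-6, in all 14 genes or 0.0769%, from 2 against 2 arrays. This count was 3 without wild-type TSG-6 replicate 2, 8 without LPS replicate 1 and 9 without LPS replicate 2. Of the 106 genes called in knockout-labelled cultures, 99 (93.4%) had the same sign in wild-type cultures, against 59.8% of all genes. Across genes, which are not independent replicates, the correlation of the log2 differences between genotypes was 0.847 over the 106 and 0.409 over all genes. The median difference of the 61 higher genes was 0.73 in knockout-labelled and 0.30 in wild-type cultures, and that of the 45 lower genes was -0.79 and -0.43. The 106 genes had been picked on the knockout-labelled arrays.

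Only Ncam1 and Olfm2 passed in both genotypes. Olfm2 read 2.14 and 1.74 on wild-type TSG-6 arrays, against -0.02 and -0.21 on wild-type LPS arrays, a difference of 2.06 ± 0.26 (adjusted p 2.69e-05). Ncam1 read 1.15 and 1.15 with TSG-6, against -0.79 and -0.01 with LPS, a difference of 1.55 ± 0.29 (adjusted p 0.00913). Ccl5 read -0.92 and -0.57 with TSG-6, against 2.82 and 2.37 with LPS, and its difference of -3.34 ± 0.75 was as large as in knockout-labelled cultures but had an adjusted p of 0.0775. The interferon-stimulated genes were lower with TSG-6 in all 29 in wild-type cultures too, with a median of -0.58 and 0 calls in limma (8 unadjusted). The contractile and TGF-beta-responsive genes had a median of 0.42 there, with 0 calls (4 unadjusted). Of all 18195 genes, 406 had an unadjusted p under 0.05 in wild-type cultures.

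**Figure D4:**
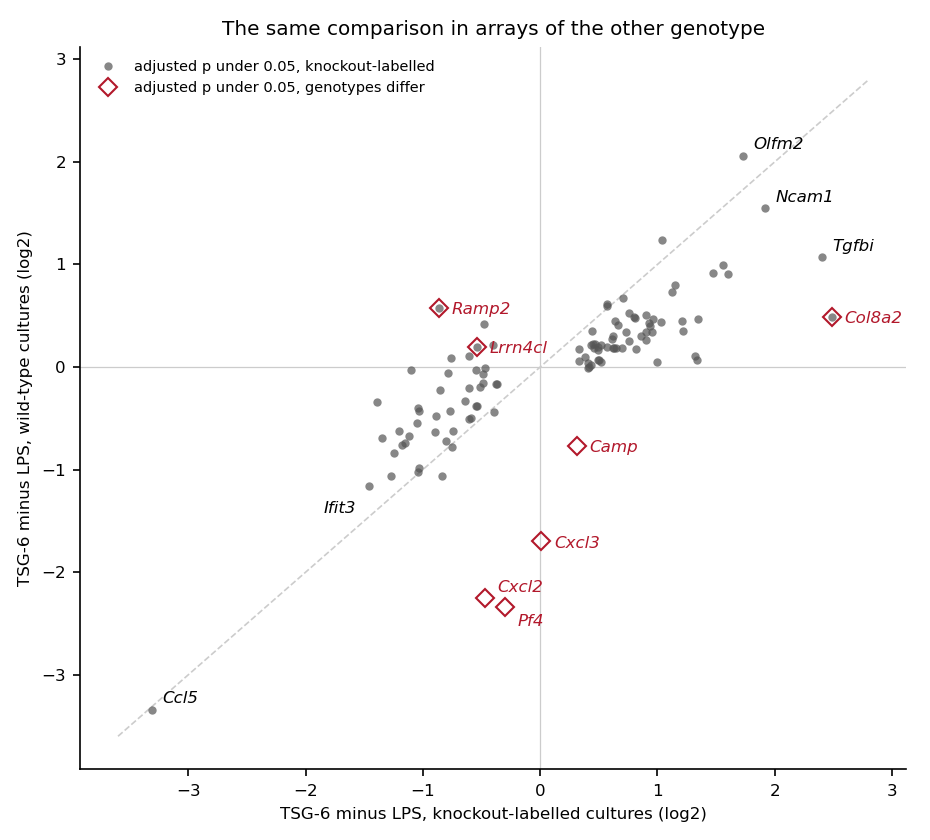
TSG-6 minus LPS (log2) in knockout-labelled (horizontal axis) and wild-type cultures (vertical axis). Grey points are the 106 genes past an adjusted p of 0.05 in knockout-labelled cultures, red diamonds the 7 genes whose difference itself differed between genotypes, and the dashed line marks equal differences. Most grey points lie at the lower left or upper right, nearer to 0 on the wild-type axis, and Ccl5 lies on the line.

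A test of the difference between genotypes called 7 genes (0.0385%), 5 with a higher value in knockout-labelled cultures (0.0275%) and 2 with a lower one (0.0110%). Col8a2 was 2.49 higher with TSG-6 in knockout-labelled and 0.49 ± 0.28 higher in wild-type cultures, where it read 0.02 and -0.52 with TSG-6 against -0.65 and -0.83 with LPS, and the genotypes differed by 2.01 ± 0.35 (adjusted p 0.0077). Pf4, Cxcl2 and Cxcl3, all CXC chemokines, differed through wild-type cultures. Cxcl2 read 0.61, -0.02 and 0.27 with TSG-6, against 0.98, 0.70, 1.00 and 0.38 with LPS, in knockout-labelled cultures, where the arrays overlapped. In wild-type cultures it read -1.07 and -1.57 with TSG-6, against 0.71 and 1.15 with LPS. The difference was -2.25 ± 0.22 there and the genotypes differed by 1.78 ± 0.28 (adjusted p 0.00222). Untreated Cxcl2 means were -3.38 in wild-type and -0.56 in knockout-labelled cultures. The wild-type arrays of either agent thus lay above the untreated mean of Cxcl2. Pf4, known as platelet factor, read -0.44, -0.11 and -0.43 with TSG-6, against 0.17, 0.04, 0.04 and -0.34 with LPS, in knockout-labelled cultures. In wild-type cultures it read 2.90 and 2.58 with TSG-6, against 4.77 and 5.38 with LPS, a level far above that of the knockout-labelled arrays, and untreated wild-type arrays averaged 2.12. The genotypes differed by 2.04 ± 0.24 for Pf4 (adjusted p 1.01e-05). Ramp2, a receptor-modifying protein found in endothelium, was lower with TSG-6 than with LPS in knockout-labelled cultures (-0.86 ± 0.15). In wild-type cultures it was 0.58 ± 0.20 higher (difference between genotypes -1.44 ± 0.25, adjusted p 0.0077). Its untreated, TSG-6 and LPS means were -0.15, -1.14 and -0.28 in knockout-labelled and 1.88, 1.37 and 0.79 in wild-type cultures. The TSG-6 mean of Ramp2 thus lay below the untreated mean in both genotypes. Lrrn4cl, a leucine-rich repeat protein gene, differed by -0.54 ± 0.09 in knockout-labelled and 0.20 ± 0.11 in wild-type cultures, and by -0.74 ± 0.14 between them (adjusted p 0.0327). Its untreated, TSG-6 and LPS means were 0.79, -0.20 and 0.34 in knockout-labelled and 0.16, -0.23 and -0.43 in wild-type cultures. Cxcl3 (1.70 ± 0.31, adjusted p 0.0114) and the antimicrobial peptide gene Camp (1.08 ± 0.19, adjusted p 0.0077), named after their values were seen, complete the count. The count of 7 was 1 without wild-type TSG-6 replicate 2, 2 without either wild-type LPS array and 4 without knockout-labelled TSG-6 replicate 1.

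The 24 genes with the largest differences were also measured in knockout-labelled cultures given TSG-6 with hyaluronan (120 and 24 ug/ml), hyaluronan alone (24 ug/ml) or TNFa (5 ng/ml) for 12 h, with 4 arrays each. Their values are given as group means without a test. Col8a2 averaged 2.27 with TSG-6, 1.91 with TSG-6 and hyaluronan, 0.15 with hyaluronan, -0.23 with TNFa, -0.22 with LPS and 0.42 untreated. Tgfbi averaged 2.16 with TSG-6 and 2.16 with TSG-6 and hyaluronan, while its mean was lowest with TNFa, at -1.23. In both genes the cultures that received TSG-6, with or without hyaluronan, had the highest means. Ccl5 averaged -0.03 with TSG-6, 0.80 with TSG-6 and hyaluronan, 2.19 with hyaluronan, 4.96 with TNFa, 3.28 with LPS and -1.03 untreated. Cxcl11 averaged -0.37 with TSG-6, -0.24 with TSG-6 and hyaluronan, 0.25 with hyaluronan, 5.14 with TNFa, 0.90 with LPS and -0.71 untreated. Both chemokines had their highest mean with TNFa. Psmb8 averaged -0.87 with TSG-6, -0.75 with TSG-6 and hyaluronan, 0.44 with hyaluronan, 2.07 with TNFa, 0.37 with LPS and -0.29 untreated. The lowest means of Psmb8 were thus those of the cultures given TSG-6. Sned1 averaged -0.06 with TSG-6, -0.10 with TSG-6 and hyaluronan, 1.48 with hyaluronan, -0.09 with TNFa, 1.33 with LPS and 1.75 untreated, so here TNFa cultures lay with the TSG-6 cultures.

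**Figure D5:**
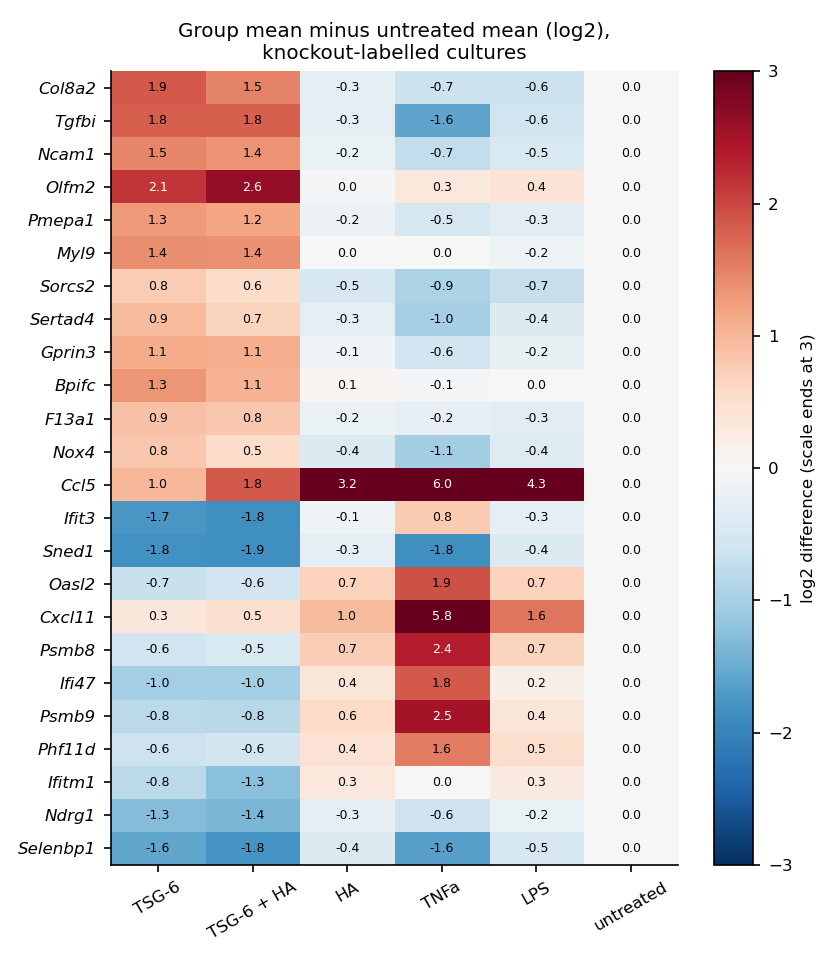
Mean centred log2 expression minus the untreated mean in knockout-labelled cultures, for the 12 largest rises and 12 largest falls between TSG-6 and LPS (rows). Columns are TSG-6 (3 arrays), TSG-6 with hyaluronan, hyaluronan, TNFa and LPS (4 arrays each) and untreated (8 arrays, 0 by construction), and the colour scale ends at 3 either way. Columns with TSG-6 resemble each other, and Ccl5 and Cxcl11 are highest with TNFa.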

How the data were processed

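RNA of synovial fibroblast cultures was hybridised to Affymetrix mouse arrays. The authors deposited log2 expression values for 45101 probe sets on 42 arrays, made with RMA per the submitters' processing notes (no version is given). Each probe set's median over the arrays was 0 in the deposited values. The log base of 2 and that higher values mean more RNA were inferred from their range (up to 9.81 for 1 probe set). Array medians lay between -0.0239 and 0.0252, so no further scaling was applied. For arrays, their number limits the precision.

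Each of 18195 genes was represented by its most variable probe set (largest SD among the 42 arrays), avoiding probe sets correlated above 0.7 with 18S ribosomal RNA (67 genes had no other). In all, 34958 probe sets named 1 gene, 932 named several and 9211 named none. Differences were fitted with limma 3.58.1 (R 4.3.3; lmFit and eBayes) over all 42 arrays in 12 groups, with 30 residual degrees of freedom, and p-values were adjusted over all genes by Benjamini-Hochberg. A gene was called at an adjusted p under 0.05. Tables and figures were made with Python 3.11.15. On simulated data of 18195 genes for TSG-6 against LPS in knockout-labelled cultures, 43.3% of 1.5-fold, 89.6% of 2-fold and 98.5% of 4-fold changes were called. The simulated noise was normal and independent between arrays and genes, with each gene's residual SD. It held no separate 18S or culture set effect, so these shares need not hold for the real arrays.

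The text names up to 4 genes of each described list, the 3 largest differences between genotypes each way where called, and Tnfaip6. It also names the 12 largest rises and 12 largest falls. These were taken from called genes whose TSG-6 arrays all lay above, or all below, the LPS arrays, so their separation is by choice. Other genes are named where a list count or a group needs them. The comparison, its members and the 36 gene lists were chosen with earlier results of these data known. Of the lists, 15 are described, with the markers of other cell types. Alternatives covered the arrays in the fit, culture set, replicate number and 18S signal, normalization, probe set choice, a filter on low SD, a robust prior and leaving out arrays. The fits with 18S as a covariate and within each culture set were added after seeing the data. Sets were read from probe sets split by a gap over 1 (12 of 25 share the split among knockout-labelled arrays).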

Additional observations from a re-analysis of the deposited data

Results flagged for a closer look

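The 7 genes whose difference between TSG-6 and LPS itself differed between genotypes (limma, adjusted over all genes, 293 at an unadjusted p under 0.05) are listed here with knockout-labelled minus wild-type values. The difference was higher in knockout-labelled cultures for Pf4 by 2.04, Col8a2 by 2.01, Cxcl2 by 1.78, Cxcl3 by 1.70 and Camp by 1.08 on the log2 scale. It was lower for Ramp2 (-1.44) and Lrrn4cl (-0.74). Camp read 1.11, 1.20 and 1.12 with TSG-6, against 0.88, 0.93, 0.70 and 0.82 with LPS, in knockout-labelled cultures. In wild-type cultures it read -1.15 and -1.61 with TSG-6, against -0.65 and -0.57 with LPS. Untreated Camp means were -2.41 in wild-type and -0.07 in knockout-labelled cultures. Cxcl3 read 0.58, -0.04 and 0.64 with TSG-6, against 0.30, 0.53, 0.27 and 0.44 with LPS, in knockout-labelled cultures. It read -0.99 and -1.31 with TSG-6, against 0.52 and 0.57 with LPS, in wild-type cultures. Untreated Cxcl3 means were -2.87 in wild-type and -0.42 in knockout-labelled cultures. Each wild-type TSG-6 or LPS group here has 2 arrays, and the untreated wild-type group has 5.

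Among 62 groups of arrays tested for a value far from the others, 1 stood out, the untreated knockout-labelled replicate 3 for Sorcs2, at 0.64. Chance gives such a value in about 1 of 20 groups.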

How the results depend on the processing

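The 106 genes of the knockout-labelled comparison became 13 on the groups compared alone, 317 with the culture set as a block, 24 without arrays of high 18S signal and 397 with quantile normalization, and 27 to 94 with an array left out. Fits added after seeing the data gave 181 with 18S as a covariate, 23 within set a and 13 within set b. Higher genes were 57.5% of the calls, 64.2% under cyclic loess, 45.7% without TSG-6 replicate 3 and 65.2% within set a. The wild-type 14 became 0 on the groups compared (limma, 487 unadjusted), 70 with the set block, 1 with quantile normalization and 3 to 14 with an array left out. The 7 differences between genotypes became 0 (limma, 293 unadjusted), 14 and 1 under these settings and 1 to 8 with an array left out. The 864 of TSG-6 against untreated became 560 on the groups compared, 1539 with the set block, 435 at low 18S and 1582 with quantile normalization, and 322 to 937 with an array left out. The 326 of LPS against untreated became 720 with the set block, 134 at low 18S, 592 with quantile normalization and 520 with 18S as a covariate, and 200 to 328 with an array left out. Whether replicate numbers pair the arrays could not be settled. In knockout-labelled cultures same-numbered TSG-6 and LPS arrays correlated at 0.525, 0.025 and 0.087, and other-numbered ones at -0.353 to 0.217. These are deviations from means of 3 and 4 arrays, too few to show or exclude a pairing. In wild-type cultures both same-numbered pairs correlated at 0.511 and both others at -0.511. With 2 arrays a group these are a single value with either sign, too little to read a pairing. With the replicate block the counts were 212 for the knockout-labelled comparison, 17 between genotypes and 635 for LPS against untreated. The cause of these shifts was not tested.

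Of the 24 genes with the largest differences, Col8a2, Ncam1, Pmepa1 and Sorcs2 kept their calls under the other 18 fits run on both culture sets, and within set b Col8a2 did. Within set a 12 of the 24 calls were lost and on the groups compared 17. Within set b, with its single TSG-6 array, 18 were lost, which says little about those genes. Among the genes refitted under each alternative, signs turned for Rel (-0.02 within set b), Gch1 (-0.06 with the mean of probe sets), Ass1 (0.00 at low 18S, -0.04 within set b) and Tnfaip6 (-0.01 with the set block, -0.02 with quantile normalization, -0.27 within set a, -0.10 to 0.15 with an array left out). The Cxcl3 difference of 0.01 in knockout-labelled cultures was -0.15 within set a and -0.12 to 0.22 with an array left out. Among interferon-stimulated genes quantile normalization called 12, 18S as a covariate 10 and the set block 9, against 4. These fits also called more of all genes, 2.18%, 0.995% and 1.74%, against 0.583%. With the replicate block 5 cholesterol genes, 2 fibroblast markers, 2 cytokines and 7 contractile and TGF-beta-responsive genes passed, where 1.17% of all genes did. The set block gave 1 call each, and quantile normalization 1 each, among NF-kB, LPS receptor and chondrocyte genes, where the unblocked fit gave 0. On the groups compared, the ER and hyaluronan lists had 0 calls, with 2 and 1 in the fit over all arrays.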

Other observations

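Of the 106 called genes, 83 were in none of the lists. The genes named here were picked from these after their values were seen. They stand for themselves and not for a group. Rpn1 and Dad1 are subunits of the complex that attaches sugar chains to new proteins. Rpn1 read 0.23, 0.37 and 0.22 with TSG-6, against -0.24, -0.24, -0.13 and -0.25 with LPS (difference 0.49 ± 0.09, limma adjusted p 0.00254), and Dad1 differed by 0.45 ± 0.08 (adjusted p 0.00356). Pdia5, a disulfide isomerase, read 0.07, 0.19 and 0.21 with TSG-6, against -0.61, -0.54, -0.39 and -0.27 with LPS (0.61 ± 0.09, adjusted p 0.000105). In all 3 genes the arrays were apart, the calls held with each array left out, and wild-type cultures had the same sign (0.20, 0.22 and 0.27). Relative to untreated they were higher with TSG-6 by 0.60, 0.56 and 0.78, and with LPS by 0.11, 0.11 and 0.17, which did not pass.

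Pcsk5, a protease that activates secreted precursors, read 1.56, 1.41 and 1.31 with TSG-6, against 0.31, 0.37, 0.42 and 0.14 with LPS (1.12 ± 0.18, adjusted p 0.000786). Actg1, a cytoplasmic actin, was higher with TSG-6 by 0.38 ± 0.07 (adjusted p 0.00606), and Tpm4, a tropomyosin, by 0.43 ± 0.09 (adjusted p 0.00951). Among the falls, Trim21, an antibody receptor of the cytosol known to be raised by interferon, read -0.34, -0.25 and -0.21 with TSG-6, against 0.39, 0.30, 0.40 and 0.27 with LPS (-0.61 ± 0.12, adjusted p 0.00525). AW112010 read -0.05, -0.07 and -0.38 with TSG-6, against 1.19, 0.60, 1.09 and 0.59 with LPS (-1.03 ± 0.18, adjusted p 0.0022). Relative to untreated it was 0.25 higher with TSG-6 (adjusted p 0.508) and 1.28 higher with LPS (adjusted p 4.71e-07). Il18bp, a secreted inhibitor of an interleukin, differed by -0.80 ± 0.17 (adjusted p 0.0176).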
